A study of Homo sapiens with 8 samples.

Results

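The 6 human DNA topoisomerase genes TOP1, TOP1MT, TOP2A, TOP2B, TOP3A and TOP3B were read on the arrays by 13 of the 54675 probe sets. A probe set is a group of short probes for a transcript, and each of the 13 had a topoisomerase as its only gene symbol in the platform annotation. TOP2A and TOP3A had 3 probe sets each, TOP1, TOP1MT and TOP3B had 2 each, and TOP2B had 1. The 6 genes were among 19775 with a probe set of their own. RNA came from 4 lung cancer lines, of which A549 and H460 carry mutated K-Ras, while H1650 and H1975 carry mutated EGFR. Each line was sorted by flow cytometry after loading with the DNA dye Hoechst. Cells that pump the dye out form the side population (SP), and cells that keep it form the main population (MP). The labels name no agent for either population other than this dye and propidium iodide, which was used to gate viable cells. Each of the 4 lines gave 1 SP and 1 MP array, 8 Affymetrix arrays in all, so the line is the replicate, and no line has a second sort.

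Topoisomerases relieve the twisting and tangling that replication, transcription and chromosome segregation put into DNA. The type I enzymes cut a single strand, and the type II enzymes cut both strands and pass another duplex through the break. TOP1 serves the nucleus and TOP1MT the mitochondrion. TOP2A is made mainly in dividing cells, where its transcript and protein accumulate towards mitosis, while TOP2B is present in dividing and resting cells alike. TOP3A dissolves joined DNA molecules together with the BLM helicase, and TOP3B acts on DNA and RNA with its partner TDRD3. TOP1 is the target of camptothecin drugs such as topotecan, and the type II enzymes are the targets of etoposide and doxorubicin.

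The sequences before the start sites of TOP2A, TOP2B and TOP1 are shown because the comparisons turn on the cell cycle dependent gene, its paralog and the nuclear type I gene. They come from RefSeq on GRCh38.p14, which holds a promoter for 5 of the 6 genes, and each run is the 250 bases before an annotated start, 5′ to 3′ on the strand of the gene. Capitals mark CCAAT or its complement ATTGG, the box bound by the factor NF-Y, and TTTGAA or its complement TTCAAA, a form of the cell cycle homology element. Of the pair of TOP2B starts, the one farther upstream is shown. TOP2A lies at chr17:40417897-40418146 on the minus strand, TOP2B at chr3:25664908-25665157 on the minus strand and TOP1 at chr20:41028572-41028821 on the plus strand.
TOP2A: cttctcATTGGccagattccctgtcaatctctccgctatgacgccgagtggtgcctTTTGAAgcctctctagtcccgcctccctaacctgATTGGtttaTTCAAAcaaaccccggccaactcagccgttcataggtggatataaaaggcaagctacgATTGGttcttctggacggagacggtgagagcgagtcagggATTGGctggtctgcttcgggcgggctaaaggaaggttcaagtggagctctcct
TOP2B: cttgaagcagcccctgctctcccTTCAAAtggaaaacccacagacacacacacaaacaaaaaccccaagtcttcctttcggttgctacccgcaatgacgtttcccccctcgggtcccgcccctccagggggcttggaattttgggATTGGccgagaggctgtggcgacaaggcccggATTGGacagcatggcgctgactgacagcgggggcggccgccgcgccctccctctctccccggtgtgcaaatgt
TOP1: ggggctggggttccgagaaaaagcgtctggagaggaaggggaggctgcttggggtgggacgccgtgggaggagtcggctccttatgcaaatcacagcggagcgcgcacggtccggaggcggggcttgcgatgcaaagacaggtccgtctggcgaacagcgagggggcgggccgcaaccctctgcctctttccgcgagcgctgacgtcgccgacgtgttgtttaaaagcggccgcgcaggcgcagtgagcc

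The TOP2A run held 4 CCAAT boxes and 2 copies of TTTGAA, counted on both strands, and no copy of one overlapped a copy of the other. The TOP2B run held 2 CCAAT boxes and 1 TTTGAA. The runs of TOP1, TOP3A and TOP3B, and that of the other TOP2B start, held neither motif. Of all 35116 promoter windows of this length, 32% held CCAAT, 9.53% held it at least 2 times and 0.874% held it at least 4 times. TTTGAA was in 13.3% of the windows and occurred at least 2 times in 1.72%. Of 20 G2 and mitosis genes with a window, 17 held CCAAT and 11 held TTTGAA at their richest start. Among 27305 genes counted in the same way, the shares were 37% and 16.1%. These matches describe letters and were not tested as binding sites.

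All arrays were scaled by the authors to the same trimmed mean, and the median log2 signal of an array lay between 5.92 and 6.29. The median of the SP array minus that of the MP array ran from -0.17 (H1975) to 0.16 (A549). The epithelial keratin genes KRT8, KRT18 and KRT19 were above the array median on all 8 arrays, EPCAM on 7 and CDH1 on 6. Markers of other cells were mixed. Of leukocyte markers PTPRC was above the median on 0 arrays, CD3E on 3 and CD14 on 8, and of endothelial markers VWF was above it on 0, CDH5 on 1 and PECAM1 on 8. Of fibroblast markers COL1A1 was above it on 8, COL3A1 and LUM on 5 each and COL1A2 on 4. Their part in the results was not tested. The log2 ratio of the 3′ to the 5′ probe set of ACTB, a measure of RNA integrity, ran from 0.23 to 0.65, and SP differed from MP by -0.16 to 0.066 within a line. ABCG2, a transporter that pumps Hoechst out of cells, had the lower signal in the H1650 array labelled SP and the higher signal in the SP arrays of the other 3 lines. The study also measured sorted cells by quantitative PCR, with ABCG2 as a positive control for SP. It reports TOP2A, CDK1, AURKB and NCAPH as higher in SP of all 4 lines, H1650 included. Its array analysis likewise took these genes from a set raised in SP that the 4 lines had in common. On the deposited H1650 arrays as labelled these genes were lower in SP, unlike in the study, and the reason was not tested. Labels were kept as deposited. Directions in H1650 rest on them, and the SP over MP means of the topoisomerases are given with and without this line.

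TOP2A had a higher signal in SP than in MP in 3 lines and a lower one in H1650. By its brightest probe set, 201292_at, the linear signal was 5562 in SP and 3614 in MP of A549, 4163 and 2271 in H460, and 3129 and 1046 in H1975. In H1650 it was 1445 in the array labelled SP and 3895 in the array labelled MP. The H1650 arrays thus had the lowest TOP2A signal of the 4 SP arrays and the highest of the 4 MP arrays, and the SP and MP signals overlapped. The fold of SP over MP was 1.54 for A549, 1.83 for H460, 2.99 for H1975 and 0.371 for H1650. The log2 ratios were 0.62, 0.87, 1.58 and -1.43, in the same order. Ranked among all 12312 genes tested, TOP2A stood at percentile 91.6 for A549, 97.1 for H460, 99.5 for H1975 and 0.755 for H1650. By the brightest probe sets, TOP2A passed 2-fold in H1650 and H1975, TOP3B did so in H460, and no topoisomerase did so in A549. Ratios of at least 2-fold in either direction were seen for 4.31% of genes for A549, 3.4% for H460, 3.05% for H1650 and 4.13% for H1975. The median ratio over the genes tested was between -0.036 and 0.0039 in the 4 lines.

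Over the 4 lines the mean log2 ratio of TOP2A was 0.41 ± 1.29 (SD, n = 4 lines), less than the spread between lines. The limma interval of the mean ran from -0.56 to 1.39, and the adjusted p was 0.945. None of the 6 topoisomerases passed the adjusted threshold of 0.05 in limma, against 0% of the 12312 genes, 375 of which had an unadjusted p under 0.05. In the 3 lines without H1650 the mean of TOP2A was 1.03, with an interval from 0.62 to 1.43 and a limma adjusted p of 0.0781. There 0.203% of genes passed, and again none of the 6 topoisomerases. The difference between H1650 and the other 3 lines was -2.46 (SE 0.35, interval -3.29 to -1.63, limma adjusted p = 0.0507), close to the threshold. Over the alternative settings this adjusted p ran from 0.0187 to 0.511. With the mean of a gene's probe sets, which includes the dim TOP2A probe set 237469_at, the difference was -0.67 (adjusted p = 0.511), and the mean of TOP2A over the 4 lines was 0.028. By the brightest probe sets 0.333% of the genes passed for the difference of H1650 from the other 3 lines. Setting A549, H460 or H1975 against the other 3 lines in the same way called none of the 6 topoisomerases, against 0%, 0% and 0.0406% of genes. H1650 has a single pair of arrays, so the fit lends it the spread among the remaining lines. This line was set apart with earlier results of these data known, and the study picked TOP2A on these same arrays. The values without H1650 and the difference of H1650 are thus a description and not independent evidence. In bulk RNA a different share of cells that express TOP2A and a different amount of its RNA per cell cannot be told apart.

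The other probe sets of TOP2A were read for the same contrast. The second, 201291_s_at, had linear signals of 3762 in SP and 2850 in MP of A549, 2707 and 1065 in H460, 1614 and 636.3 in H1975, and 1094 and 1930 in H1650. Its log2 ratios of 0.40, 1.35, 1.34 and -0.82 had the sign of the brightest probe set in each line. Their mean was 0.57 ± 1.03 (SD, n = 4 lines) over all lines and 1.03 ± 0.54 (SD, n = 3 lines) without H1650. In a limma fit of all 54613 non-control probe sets the adjusted p of the latter was 0.163. The third, 237469_at, was dim, with signals from 1.483 to 88.68 and a mean log2 signal of 4.68, below the median over probe sets of 6.00. Its ratios went otherwise, with 0.24 for A549, -0.81 for H460, -3.84 for H1975 and 0.82 for H1650. The mean of its ratios was -0.90 over the 4 lines, 0.084 without H1975 and -1.47 without H1650. Higher signal in SP of A549, H460 and H1975 with lower signal in SP of H1650 was seen for 6 of the 13 topoisomerase probe sets. Of all probe sets, 9.56% had this pattern. Of the 6, TOP1 208901_s_at and TOP3A 204946_s_at lost it when the arrays were set to the same median. The former turned to -0.054 in A549 and the latter to 0.016 in H1650. None of the 13 passed over 4 lines or without H1650, where 0% and 0.00549% of all probe sets passed.

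**Figure D1:**
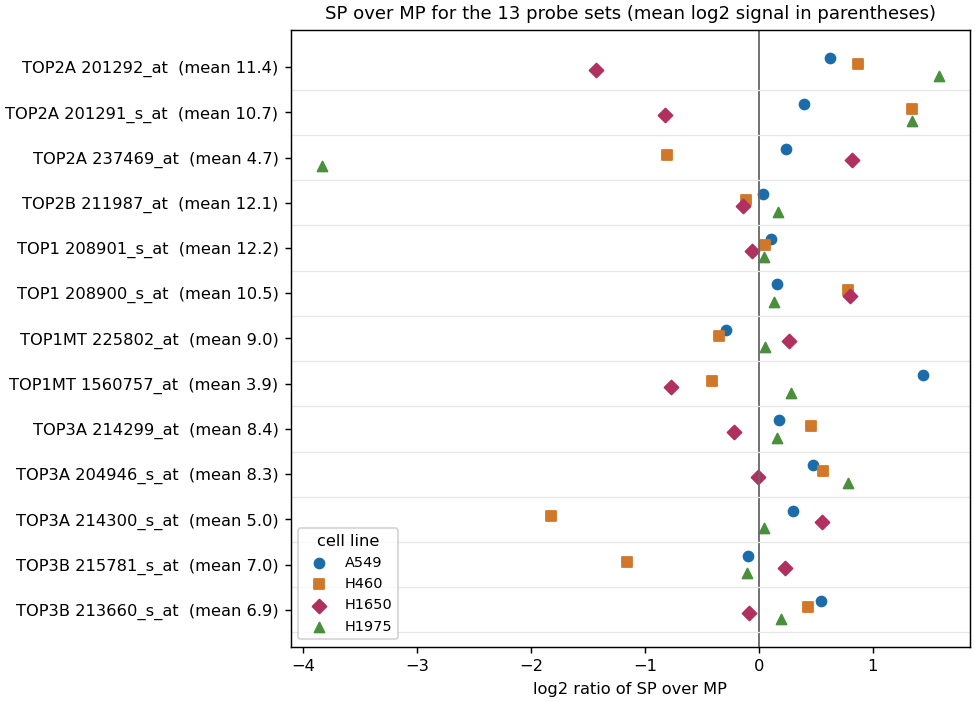
Log2 ratio of SP over MP (horizontal axis) for the 13 topoisomerase probe sets (vertical axis, with the mean log2 signal), with 1 point per cell line and 1 array per population. The brighter pair of TOP2A probe sets has H1650 at -1.43 and -0.82 and the other lines above 0, while the brightest TOP1 and TOP2B probe sets lie between -0.14 and 0.17 in all lines.

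TOP2B, the type II enzyme of resting and dividing cells alike, had nearly the same signal in SP and MP. Its only probe set, 211987_at, gave 4278 in SP and 4162 in MP of A549, 3200 and 3456 in H460, 5049 and 4481 in H1975, and 4791 and 5271 in H1650. The log2 ratios were 0.040, -0.11, 0.17 and -0.14, and the SP and MP signals overlapped. The mean was -0.0092 ± 0.14 (SD, n = 4 lines), and the limma interval ran from -0.20 to 0.18 (adjusted p = 0.992). Without H1650 the mean was 0.034, with an interval from -0.18 to 0.24.

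TOP1, the nuclear type I enzyme, had 4032 in SP and 3752 in MP of A549 by its brightest probe set, 208901_s_at. The signals were 5242 and 5046 in H460, 4283 and 4155 in H1975, and 6316 and 6579 in H1650. The log2 ratios of 0.10, 0.055, 0.044 and -0.059 were small in all lines, and that of A549 turned to -0.054 when the arrays were set to the same median. Their mean was 0.036 ± 0.068 (SD, n = 4 lines), with a limma interval from -0.13 to 0.20 (adjusted p = 0.958). Without H1650 it was 0.068, with an interval from -0.12 to 0.25. The second probe set, 208900_s_at, did not behave alike. Its signals were 1424 in SP and 1273 in MP of A549, 1706 and 988.6 in H460, 1108 and 1013 in H1975, and 2743 and 1572 in H1650. The ratios of 0.16, 0.79, 0.13 and 0.80 were above 0 in all 4 lines, H1650 included, as they were with quantile normalization and with the same median. As deposited it was the only one of the 13 with a single direction in all 4 lines, which 11.1% of all probe sets had, and with the same median 204946_s_at of TOP3A was above 0 in all 4 lines too. None of the 6 genes had a single direction in all 4 lines by its brightest probe set, against 9.75% of genes. Both counts depend on the labels of H1650. Without H1650, 8 of the 13 probe sets and 4 of the 6 genes had a single direction in the other 3 lines, against 30.6% of probe sets and 37.4% of genes. These genes were TOP1, TOP2A and TOP3A, higher in SP, and TOP3B, lower in SP, and with the same median TOP1 and TOP3B no longer had a single direction. The mean of 208900_s_at was 0.47 ± 0.37 (SD, n = 4 lines), and 0.36 without H1650. In the limma fit of all probe sets its adjusted p was 0.961, and 0.0113 before adjustment. In the annotation both probe sets name TOP1 alone, and the suffix s marks probe sets that can match several transcripts.

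TOP1MT, the mitochondrial type I enzyme, had signals of 596.9 in SP and 727.7 in MP of A549 by probe set 225802_at. They were 443.4 and 565.9 in H460, 602.6 and 579.5 in H1975, and 427.9 and 355.5 in H1650. The log2 ratios were -0.29, -0.35, 0.056 and 0.27, the last of which rests on the labels of H1650. The mean was -0.079 ± 0.29 (SD, n = 4 lines, limma interval -0.42 to 0.27, adjusted p = 0.958). Without H1650 it was -0.19, with an interval from -0.53 to 0.14. The other probe set, 1560757_at, had signals from 3.995 to 30.35, with the ratios 1.44, -0.41, 0.29 and -0.77 in A549, H460, H1975 and H1650. Their mean was 0.14 over the 4 lines and 0.44 without H1650. A floor of 32 leaves it without any ratio, since all its linear signals lie below that floor.

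TOP3A, the partner of BLM, had signals of 270.4 in SP and 239.6 in MP of A549 by probe set 214299_at. They were 457.8 and 333 in H460, 463.1 and 413.3 in H1975, and 280.6 and 325.9 in H1650. The log2 ratios of 0.17, 0.46, 0.16 and -0.22 had the signs of those of TOP2A, at a smaller size. The mean was 0.15 ± 0.28 (SD, n = 4 lines, limma interval -0.23 to 0.52, adjusted p = 0.945). Without H1650 it was 0.27, with an interval from -0.11 to 0.64 (limma adjusted p = 0.508). A second probe set of nearly the same brightness, 204946_s_at, had ratios of 0.48, 0.57 and 0.78 in A549, H460 and H1975 and of -0.0042 in H1650. Its mean was 0.46 ± 0.33 (SD, n = 4 lines). Its limma adjusted p was 0.961, and 0.0264 before adjustment. Without H1650 its mean was 0.61 (limma adjusted p = 0.316). The third, 214300_s_at, had signals of 11.36 to 52.93, and its ratio of -1.82 in H460 set its mean of -0.23. Without H460 that mean was 0.30, and without H1650 it was -0.49.

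TOP3B, the enzyme that also acts on RNA, was read by a pair of probe sets with opposite mean ratios. By 215781_s_at the signals were 112.6 in SP and 120.5 in MP of A549, 69.35 and 154.4 in H460, 204.7 and 219.4 in H1975, and 122.4 and 104 in H1650. The ratio of -1.15 in H460 was the only one over 2-fold. The others were -0.097, -0.10 and 0.23, and the mean was -0.28 ± 0.60 (SD, n = 4 lines, limma interval -0.90 to 0.34, adjusted p = 0.945). Without H460 the mean was 0.013, and without H1650 it was -0.45, with an interval from -1.13 to 0.23. By 213660_s_at the signals were 115.8 and 79.26 in A549, 139.4 and 103.1 in H460, 206.5 and 180.6 in H1975, and 88.09 and 93.27 in H1650. These gave ratios of 0.55, 0.44, 0.19 and -0.082, which averaged 0.27 ± 0.28 (SD, n = 4 lines), with an adjusted p of 0.961 by limma. Without H1650 their mean was 0.39.

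**Figure D2:**
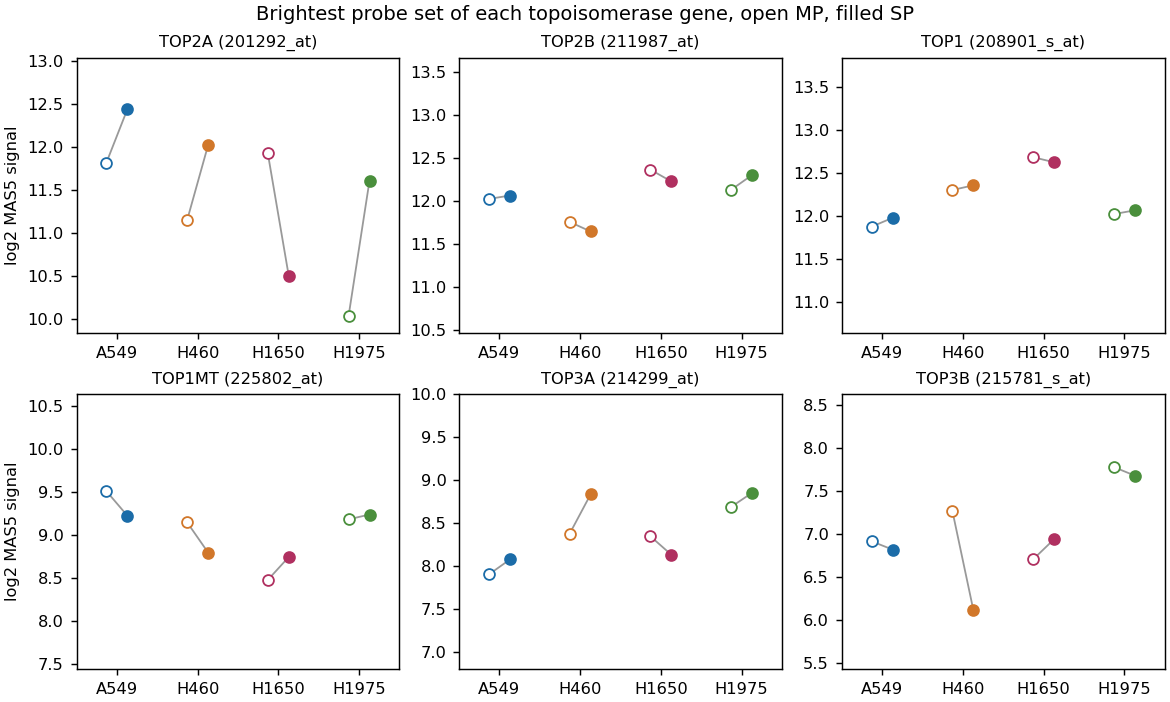
Log2 MAS5 signal (vertical axis, the same span in each panel) of the brightest probe set of each gene in the 4 lines (horizontal axis), with an open circle for MP and a filled circle for SP of the same line, 1 array each. The lines joining TOP2A circles are the longest in A549, H1650 and H1975, and those of TOP1 and TOP2B are short in every line.

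The ratio of TOP2A was compared with that of each other topoisomerase within each line, by the brightest probe set of each gene. The other 5 genes had log2 ratios between -0.29 and 0.17 for A549, between -1.15 and 0.46 for H460, between -0.10 and 0.17 for H1975, and between -0.22 and 0.27 for H1650. TOP2A lay above all 5 in A549, H460 and H1975 and below all 5 in H1650. The order in A549 depends on the probe sets. There TOP2A had 0.40 by 201291_s_at, TOP3A had 0.48 by 204946_s_at and TOP3B had 0.55 by 213660_s_at. The ratio of TOP2A minus that of TOP2B was 0.58 for A549, 0.98 for H460, 1.41 for H1975 and -1.29 for H1650, a mean of 0.42 ± 1.19 (SD, n = 4 lines). The mean difference was 0.38 ± 1.24 from TOP1, 0.49 ± 1.48 from TOP1MT, 0.27 ± 1.09 from TOP3A and 0.69 ± 1.67 from TOP3B. TOP2A was higher in 3 of 4 lines in each of the 5 comparisons. The exact two-sided sign-flip permutation p ran from 0.375 to 0.625, and the Benjamini-Hochberg adjusted p over the 5 comparisons was 0.625 for each. With 4 lines this test cannot pass the threshold, since the smallest p it allows is 2 of 16 sign patterns. Without H1650 the mean differences were 0.96 ± 0.52 from TOP1, 1.22 ± 0.31 from TOP1MT, 0.99 ± 0.41 from TOP2B, 0.76 ± 0.57 from TOP3A and 1.48 ± 0.68 from TOP3B (SD, n = 3 lines). There the exact permutation p was 0.25 for each, which is the smallest that 3 lines allow.

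Genes of G2 and mitosis had the pattern of TOP2A. Of 25 measured members of a list of G2 and mitosis genes, 23 had a higher signal in SP of A549, H460 and H1975 and a lower one in H1650, against 13.5% of all genes tested. The median log2 ratio of the list was 0.51 for A549, 0.31 for H460, 0.90 for H1975 and -0.65 for H1650. No member passed limma over 4 lines, where 0% of all genes passed. The spindle checkpoint kinase TTK was the 1 member that passed without H1650 (limma adjusted p = 0.0360), against 0.203% of all genes. In the single pair of H1650, CDK1, KIF11 and TTK had ratios of -1.24, -0.92 and -0.92. Their mean ratios in the other lines were 0.47, 0.79 and 0.90. The 4 members with the highest signal were ANLN, a scaffold of the contractile ring, CDK1, the kinase of mitotic entry, NUSAP1, a spindle protein, and CCNB1, a mitotic cyclin. Their ratios in H1975 were 0.98, 0.60, 1.00 and 0.71, and those in H1650 were -0.31, -1.24, -0.76 and -0.39. By its brightest probe set, the ratio of TOP2A was larger in size than that of all 25 in H460, H1650 and H1975, and 12 of the 25 exceeded it in A549. By the TOP2A probe set 201291_s_at this held in H460 alone, at 1.35. That probe set had -0.82 in H1650, where AURKB had -1.34 and CDK1 -1.24. In H1975 it had 1.34, where NCAPH had 1.53. The KIF20A ratio went against the list in H460 and H1650, at -0.30 and 0.13.

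A list of S phase genes had the same signs with smaller medians. Its 20 members had a median ratio of 0.15 for A549, 0.044 for H460, 0.44 for H1975 and -0.23 for H1650, and 11 of the 20 had the pattern of TOP2A. Of the 4 with the highest signal, PCNA, the sliding clamp, had -0.39, 0.14, 0.27 and -0.053, in that order of lines. TYMS, which makes thymidylate, had 0.15, 0.051, 0.40 and -0.24, and the helicase subunit MCM6 had 0.0905, 0.0325, 0.31 and -0.0030. RRM1, a subunit of ribonucleotide reductase, had 0.20, 0.0042, 0.43 and -0.52. None of the 20 passed limma over 4 lines or without H1650. TOP2A and 3 members of the G2 and mitosis list, CDK1, AURKB and NCAPH, were picked by the study on these same arrays, so the count is not independent evidence for them. Of the other 22 members, 20 had the pattern of TOP2A. They were read on the same pairs of arrays, from a list chosen with earlier results of these data known. This count is thus a description and not independent evidence either. The share of cells in each phase was not measured.

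**Figure D3:**
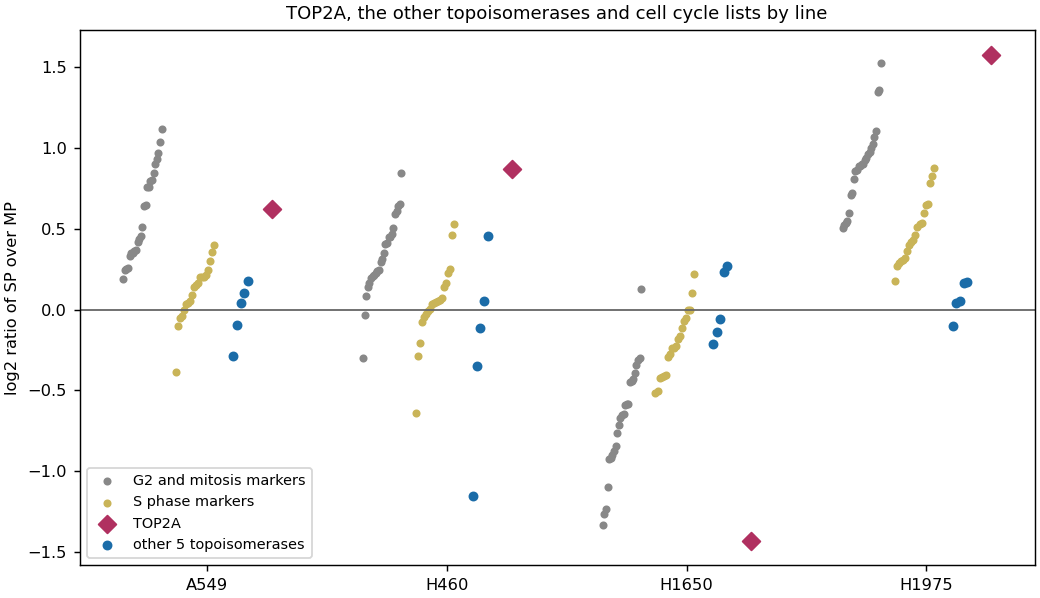
Log2 ratio of SP over MP (vertical axis) in each line (horizontal axis) for 25 G2 and mitosis genes (grey), 20 S phase genes (yellow), TOP2A (diamond) and the other 5 topoisomerases (blue), each by its brightest probe set. TOP2A lies at the edge of the G2 and mitosis genes or beyond it in H460, H1650 and H1975, and the other topoisomerases lie nearer to 0 except TOP3B in H460, at -1.15.

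The partners of the enzymes were read from lists of their own. Over all genes tested, 45.4% had a higher mean in SP. Of 5 partners of the TOP3 enzymes, 4 had a higher mean in SP, and none passed limma. The helicase BLM had ratios of 0.65 for A549, 0.42 for H460, 0.55 for H1975 and -0.33 for H1650. These averaged 0.32 ± 0.45 (SD, n = 4 lines), with an adjusted p of 0.945 by limma. Without H1650 their mean was 0.54. Its cofactors RMI1 and RMI2 had means of 0.18 ± 0.36 and 0.12 ± 0.27, and FMR1, which binds RNA, had -0.044 ± 0.072. Of 10 genes for the repair of trapped topoisomerases, 5 had a higher and 5 a lower mean, with a median of 0.0026 against -0.017 over all genes tested. TDP2, which frees the type II enzymes from DNA ends, had a mean of -0.069 ± 0.093, and PARP1, a sensor of strand breaks, had -0.098 ± 0.24. NBN and RAD50, of the complex that trims such ends, had -0.016 ± 0.086 and -0.081 ± 0.20. Of 9 genes that maintain mitochondrial DNA alongside TOP1MT, 5 had a higher mean, and the median was 0.045. SSBP1, which coats single-stranded DNA, had -0.024 ± 0.079, and the factors TFAM and TFB2M had -0.0027 ± 0.30 and 0.14 ± 0.41. The nuclease MGME1 had 0.098 ± 0.29. Without H1650 the median of the list means was 0.16 for the TOP3 partners, 0.0063 for the repair genes and 0.051 for the mitochondrial genes, against -0.026 over all genes tested.

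Genes tied to the response to topoisomerase drugs were also read. ABCG2, which exports topotecan, had ratios of 1.08, 0.36, 1.17 and -0.70 in A549, H460, H1975 and H1650. TOPORS, a ligase that binds TOP1, had 0.63, 0.71, 0.97 and -0.47 in these lines and averaged 0.46 ± 0.64 (SD, n = 4 lines). Without H1650 it averaged 0.77. Its limma adjusted p was 0.945 over 4 lines and 0.0559 without H1650. TOPBP1, a checkpoint protein that binds TOP2B, had a mean of 0.045 ± 0.20, and the exporter ABCC1 had 0.013 ± 0.19. The remaining measured gene, SLFN11, had a low mean log2 signal of 6.40. Its ratios were 0.39 for A549, 0.092 for H460, -1.69 for H1975 and 1.33 for H1650, so its signs in H1975 and H1650 were opposite to those of ABCG2 and TOPORS. Its mean was 0.031 ± 1.26 (SD, n = 4 lines), and -0.40 without H1650. None of the 5 measured genes of this list passed limma over 4 lines or without H1650.

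Between the lines, 4 of the 6 topoisomerases differed in level at a limma adjusted p under 0.05. In this test 76.2% of all genes passed, so the share of topoisomerases is near the background. The test sets the line means against the spread within lines that remains after a common SP and MP difference is taken out. TOP1 differed most clearly (adjusted p = 0.00128). Both H1650 arrays were above all others, at 6316 and 6579, followed by H460 at 5046 and 5242, H1975 at 4155 and 4283, and A549 at 3752 and 4032. The arrays of neighbouring lines in this order did not overlap. H1650 was 0.56 above the mean of the other 3 lines on the log2 scale (SE 0.080, adjusted p = 0.00098). Each line was set against the other 3 in this way, and 43.7% of genes passed for A549, 51% for H460, 51% for H1650 and 51.9% for H1975. Of the 6 topoisomerases 2 passed for A549, 1 for H460, 3 for H1650 and 2 for H1975. The second TOP1 probe set also had its highest line mean in H1650, at a log2 signal of 11.02 against 10.05 to 10.39 in the other lines. A549 was 0.42 below the other lines for TOP1 (adjusted p = 0.00493). With the mean of the gene's probe sets it was 0.25 below them (log2 difference -0.25, adjusted p = 0.0976), and by the second probe set A549 was not the lowest line. By the brightest probe set H1975 was 0.26 below them (adjusted p = 0.0283, and 0.412 without H1650 or 0.0993 without H460).

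For TOP2B the order was H1650, H1975, A549 and H460, with both H460 arrays below all others, at 3200 and 3456 (F test adjusted p = 0.00819). The arrays of H1650 and H1975 overlapped. H460 was 0.49 below the mean of the other lines (SE 0.094, adjusted p = 0.00403, and 0.158 with the same median). H1650 was 0.31 above it (adjusted p = 0.0279, and 0.285 without H460 or 0.173 with the same median). Without H460 the F test of TOP2B gave an adjusted p of 0.267, and with the same median it gave 0.154. TOP1MT ran in the order A549, H1975, H460 and H1650, and its arrays overlapped between A549 and H1975. H1650 was 0.57 below the other lines (adjusted p = 0.0255, and 0.0772 without A549). Its F test gave 0.0455, and without A549, H1650 or H1975 it gave 0.105, 0.166 and 0.0546. With the same median, no filter on signal or no trend, this F test gave 0.0823, 0.0576 and 0.0536.

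TOP3A by its brightest probe set ran in the order H1975, H460, H1650 and A549. The arrays of H1975 and H460 overlapped, and those of the other neighbours in this order did not. A549 was 0.55 below the other lines (adjusted p = 0.0442, and 0.0806 without H460 or 0.155 without H1975). The second TOP3A probe set did not show this order, with line means between 8.25 and 8.38. The F test adjusted p of TOP3A was 0.0456, and it was 0.168, 0.0554 and 0.141 without A549, H460 or H1975. With no filter on signal it was 0.0631, and with the mean of the gene's probe sets 0.457. TOP3B was highest in H1975 by both probe sets, with log2 line means of 7.73 and 7.59 against 6.69 to 6.86 and 6.50 to 6.90 in the other lines. H1975 was 0.94 above the other lines (adjusted p = 0.0354, and 0.0552 without A549), while the F test of TOP3B gave 0.107, and 0.04997 without H460.

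TOP2A did not pass this test (F test adjusted p = 0.255). The order of its line means was A549, H460, H1650 and H1975, with log2 signals of 12.13, 11.59, 11.21 and 10.82, and the SD over the pair of arrays from each line was 0.44 to 1.12. Among the 3 lines other than H1650, the order was A549, H460 and H1975 within MP and within SP alike. With the labels as deposited, H1650 came before these lines in MP and after them in SP. The fit has a single term for population, so the opposite sign of H1650 enters its error. Without H1650 the F test adjusted p was 0.00321, and without A549, H460 or H1975 it was 0.559, 0.202 and 0.302. When H1650 was left out, A549 was 0.93 above and H1975 1.04 below the mean of the other lines (limma adjusted p = 0.00534 and 0.00235). H1650 was left out with its opposite sign known, so these values are a description.

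The genes whose log2 signals over the 8 arrays were most like those of TOP2A were CDCA5, which protects sister chromatid cohesion (Pearson r = 0.945), TBC1D31 (0.941), GMNN, the licensing inhibitor geminin (0.937), the splicing factor SF1 (0.936) and KNTC1, a kinetochore protein (0.927). The ratios of GMNN were 0.15, 0.39, 0.55 and -0.48 in A549, H460, H1975 and H1650, smaller than those of TOP2A in each line. The most like TOP1 were BAHD1 (0.992) and SYS1 (0.989), and those most like TOP2B were MAFF (0.991) and CCDC85C (0.988). SNX17 and CHID1 were most like TOP1MT (0.987 and 0.972), PPIG and MEX3C most like TOP3A (0.979 and 0.970), and EML3 and CDK20 most like TOP3B (0.948 and 0.946). The 8 points are 4 pairs from 1 line each, and the highest values among 12312 genes are given as a description.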

How the data were processed

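Total RNA of sorted SP and MP cells of 4 lines was hybridised to Affymetrix Human Genome U133 Plus 2.0 arrays. The authors deposited log2 MAS5 signals, and the submitters' processing notes name GCOS 1.4. On the linear scale every array has a trimmed mean of 500.1, and no detection calls or scan dates were used here. Dim probe sets have large log2 ratios, since MAS5 signals have no floor, and the number of arrays limits the precision. The population was taken from the labels, and the stated cell line paired the arrays. SP and MP deviations of a line correlated with r from 0.887 to 0.940.

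Probe sets with 1 gene symbol (41097) were used, the brightest standing for the gene. The limma fits (limma 3.58.1, R 4.3.3, lmFit and eBayes with trend) ran on 12312 of 19775 genes, those whose mean log2 signal reached 6.00, the median over the 54613 non-control probe sets. A separate fit took all of these probe sets, and the cell line was the block in both. The lines were compared with population as a term. Calls required a Benjamini-Hochberg adjusted p under 0.05, and the scripts were tested on simulated data. P-values of SP against MP measure the spread between 1 sort per line. Those between lines measure the spread within lines that remains after a common SP and MP difference is taken out. The pair of arrays of a line may share a culture. Levels of different probe sets were not compared.

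The members and lists were chosen with earlier results of these data known. All member probe sets, up to 4 list genes of the highest signal, the 5 genes most like TOP2A and the 2 most like each other member were named. Outside this rule, TTK, KIF11, KIF20A, AURKB, NCAPH and SLFN11 were named after their values were seen. Alternatives were a floor of 32, a pseudocount of 16, quantile normalization, the same median, no filter on signal, the mean of a gene's probe sets, no block, no trend, and leaving out each line.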

Additional observations from a re-analysis of the deposited data

How the results depend on the processing

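No topoisomerase passed for SP against MP under any of the 12 alternatives, and no probe set under any of 10. The fit with no replicate block gave TOP2A the same 0.41 (adjusted p = 1.00) and 0 genes, and changed no other call. Without H1650, 25 genes and 3 probe sets passed, against 0 and 0. TOP2A differed in H1650 from the other lines with a pseudocount of 16 (-2.44, adjusted p = 0.0274) and with the same median (-2.43, adjusted p = 0.0187), with 1 topoisomerase called in each. Over the settings 0 to 132 genes passed there, against 41. For H1975 0 to 2 passed, against 5, and for A549 0 to 4, against 0. Between lines 4 topoisomerases passed, against 76.2% of genes. With the same median 2 passed (75.3% of genes), without the filter 2 (53.3%), with no trend 3 (72.1%), with the mean of a gene's probe sets 5 (69.7%, TOP3B gained at an adjusted p of 0.0284), and 2 to 4 when a line was left out (61.5% to 70.7%). TOP1 passed this F test under all 11 alternatives (adjusted p from 0.00102 to 0.0165).

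With the mean of a gene's probe sets, which lets dim probe sets count as much as bright ones, TOP2A minus TOP1 was -0.23, minus TOP1MT -0.0015 and minus TOP3A -0.097. In that setting TOP1MT had 0.029 for SP against MP, TOP1 had 0.16 and TOP1MT -0.37 for H1650 against the other lines, TOP3A of A549 was 0.081 above the other lines, and TOP2A differed between lines (adjusted p = 0.00115). TOP2B had 0.0018 with quantile normalization, and the TOP3A probe set 214300_s_at had 0.0058 with the floor. When a line was left out, TOP2A minus TOP1 ran from -0.012 to 0.96 and minus TOP3A from -0.12 to 0.76, the lowest without H1975. TOP2A itself ran from 0.022 to 1.03 for SP against MP, TOP2B from -0.070 to 0.034 (0.025 without H460), TOP1MT from -0.19 to 0.013 and TOP3B from -0.45 to 0.013. The dim probe sets ran from -0.30 to 0.44 (1560757_at), from -0.49 to 0.30 (214300_s_at) and from -1.47 to 0.084 (237469_at). The causes were not tested.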
